A study of Mus musculus with 18 samples.

Results

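The 6 hearts of the HXP group fell into a side with high and a side with low collagen mRNA, and the genes that went with that difference are described here. The sides were chosen by the measured level of 1 gene, Col1a1, which encodes a chain of type I collagen (ENSMUSG00000001506, chromosome 11, 94936224 to 94953042 on GRCm38). HXP libraries with at least 100 FPKM of Col1a1 formed the high side, which held 3 libraries (HXP 1, HXP 2 and HXP 3), and libraries below 100 FPKM formed the low side, which held the other 3 (HXP 4, HXP 5 and HXP 6), of 18 libraries in the series. FPKM is a read count per gene that has been divided by transcript length and by library size.

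The series is a bulk RNA-seq study of mouse heart tissue with 3 groups of 6 libraries, labelled control, MI (acute myocardial infarction) and HXP treatment. Total RNA was depleted of ribosomal RNA before library preparation, per the labels. By its title the series concerns mice with acute infarction that received HXP, but the labels give no dose, no time after infarction, no strain, sex or age, no infarct size and no sampled region of the heart, and they do not spell out what HXP is. The labels also do not say in so many words that each library came from its own mouse, so p-values below measure the spread between libraries.

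After an infarct, dead myocardium is replaced by a scar. Resident fibroblasts become activated, then contractile (myofibroblasts) and finally scar-keeping cells (matrifibrocytes), and they lay down collagens, matrix glycoproteins and crosslinking enzymes under the influence of TGF-beta. Macrophages clear debris, present antigen and signal to the fibroblasts, while stretched cardiomyocytes switch on fetal genes such as those of the natriuretic peptides. In a bulk sample of such a heart, fewer cells of a type and less RNA per cell cannot be told apart, and the same holds for how much scar and how much spared muscle went into the tube.

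On the high side Col1a1 reached 185, 186 and 345 FPKM (HXP 1 to HXP 3), and on the low side 50.7, 41.3 and 2.29 FPKM (HXP 4 to HXP 6). The member nearest to the threshold was therefore at 185 FPKM inside the high side and at 50.7 FPKM on the low side, so no library lay close to 100 FPKM. The MI libraries ranged from 74.1 to 668 FPKM with a median of 219, and the control libraries from 9.25 to 16.7 with a median of 13.3. HXP 4 and HXP 5 thus lay between the control and the MI ranges, and HXP 6 lay below every control library. Ranking the 6 HXP libraries by the other 18 collagens gave the same sides.

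**Figure D1:**
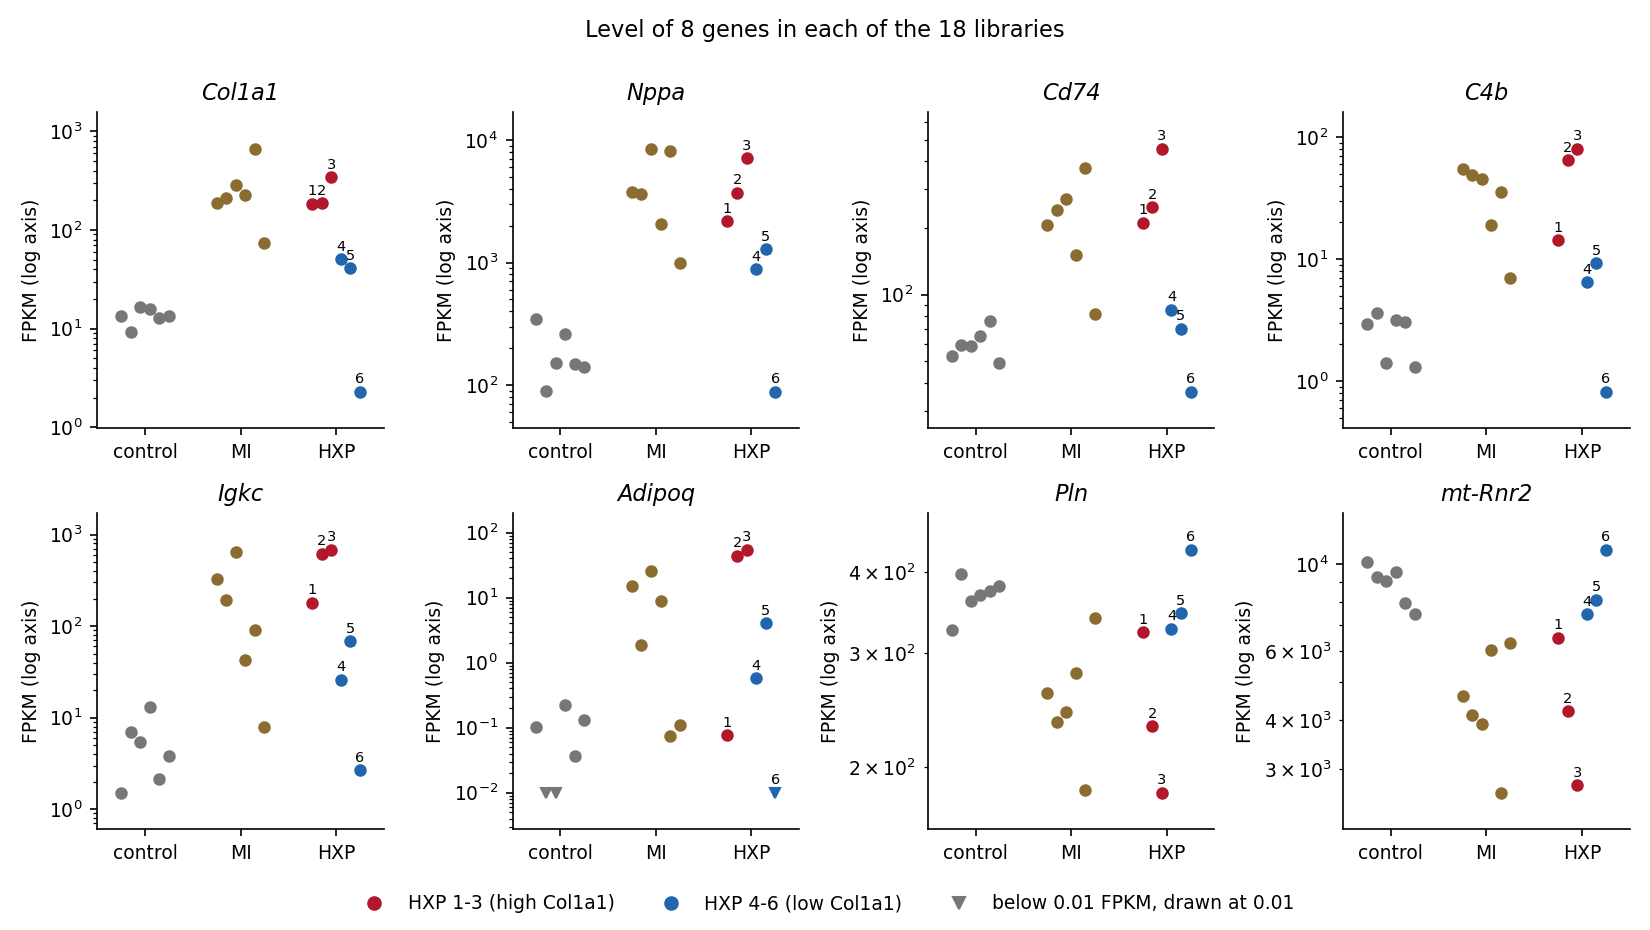
FPKM (log axis) of 8 genes in each of the 18 libraries: control in grey, MI in brown, HXP 1 to 3 in red and HXP 4 to 6 in blue, with the HXP number above each point; triangles mark values below 0.01 FPKM. HXP 6 lies at or below the control libraries for Col1a1, Nppa, Cd74 and C4b, while HXP 1 lies with the low side for Adipoq.

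Depth did not separate the sides: the low FPKM values of all 18 libraries fall on steps that correspond to 75.8 M to 81.1 M reads per library. Other features of the libraries did go with the split. Mitochondrially encoded transcripts took 20.2%, 22.1% and 16.6% of the reads in HXP 1, HXP 2 and HXP 3 but 31.3%, 33.4% and 36.8% in HXP 4, HXP 5 and HXP 6, against 29.9% to 34.7% in control and 16.6% to 27.4% in MI libraries. Genes at 1 FPKM or more numbered 11758, 12574 and 12820 on the high side and 11095, 10892 and 9888 on the low side. The part of these features in the differences below was not tested, except where a value with another scaling is given.

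Because Col1a1 of the same libraries chose the sides, and because libraries that differ in 1 abundant gene differ in many, every comparison of the high with the low side is a description without a test. Differences are means of log2(FPKM + 1) on the high side minus means on the low side, which understates the change of genes near 0. A gene was called when that difference was at least 1 (2-fold) and all 3 libraries of a side lay above all 3 of the other. The comparison covered 13710 genes, those whose average across all 18 libraries reached 0.5 FPKM. Of these, 1497 (10.9%) were called higher and 7 (0.0511%) lower on the high side. Without the fold threshold, the sides did not overlap for 7163 genes (52.2%) in the higher and 217 (1.58%) in the lower direction.

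The whole distribution of differences was shifted. The median difference over all genes was 0.39, and 11861 genes lay above 0 against 1848 below. FPKM values are relative within a library, and mitochondrially encoded transcripts took a smaller share of it on the high side. Rescaling each library by its median ratio to the others brought the median difference to 0.02, with 527 genes (3.84%) called higher and 99 (0.722%) called lower. Scaling without the mitochondrially encoded genes alone left 1337 genes higher and 11 lower. Every statement below should be read against that median of 0.39, and a list whose direction depends on the scaling is given on both scales. Counts per list as deposited should be read against the 10.9% of all genes called higher and the 52.2% that did not overlap.

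HXP 5 and HXP 6 stood apart from the other 16 libraries in a second respect. Both lay below all 16 others in 1755 genes (12.8%), and the median transcript GC content of these genes was 57.1%, compared with 49.8% over all genes tested. Rpl36, a ribosomal protein gene, stood at 359, 313 and 256 FPKM on the high side and at 169 FPKM in HXP 4, but at 29.0 in HXP 5 and 8.80 in HXP 6, while control and MI libraries held at least 191 FPKM. Cox6a2, the muscle form of a cytochrome c oxidase subunit, read 1435, 934 and 561 FPKM on the high side, 815 in HXP 4, 184 in HXP 5 and 116 in HXP 6. With HXP 4 alone as the low side, the difference of Cox6a2 was 0.16 in place of 1.81, and that of the LIM protein gene Crip2 was 0.10 in place of 2.07. Cox6a2 and Crip2 were not called, because HXP 4 lay within the high side. Rpl36 was called, with a difference of 3.06 as deposited and 0.85 against HXP 4 alone. Reads of small genes such as Rpl36 may also be shared with processed copies elsewhere in the genome.

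**Figure D2:**
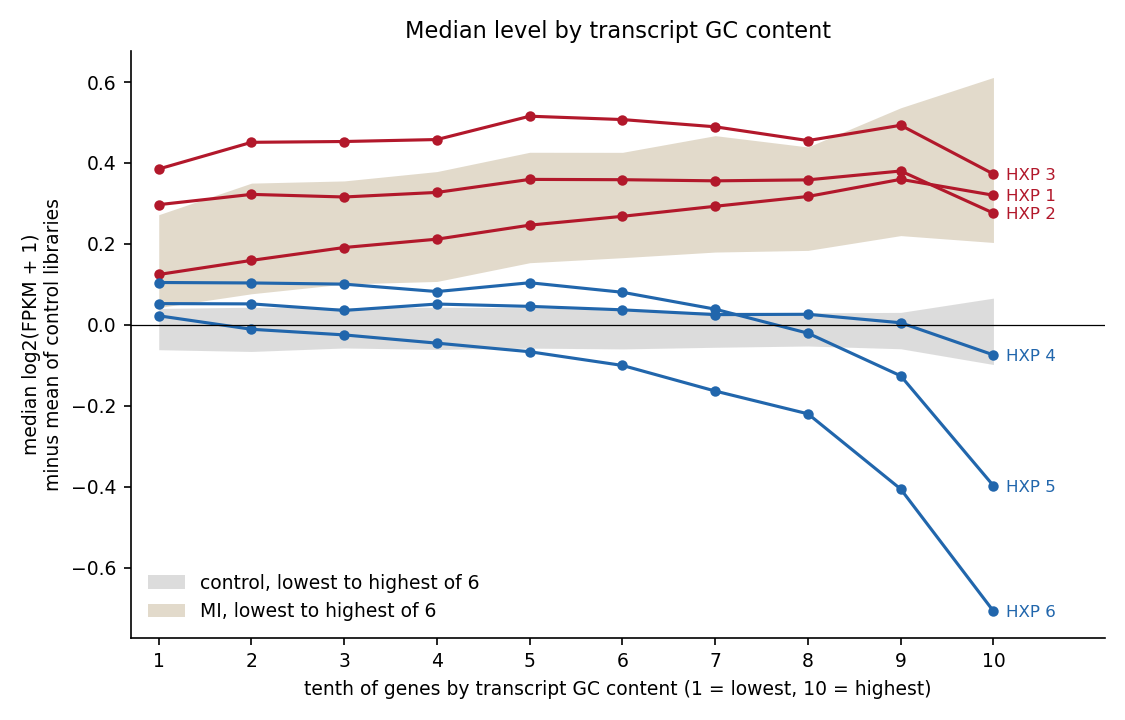
Median difference in log2(FPKM + 1) from the mean of the control libraries, for genes in 10 classes of transcript GC content from lowest to highest; lines are HXP libraries and bands span the 6 control and the 6 MI libraries. From the lowest to the highest class HXP 5 went from 0.10 to -0.40 and HXP 6 from 0.02 to -0.71, whereas HXP 4 went from 0.05 to -0.07.

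A stricter set was kept beside the calls as deposited. It held genes that were called higher in 4 settings: as deposited, after median-ratio scaling, after removal of each library's GC trend (446 genes, 3.26% of 13692, with 68, 0.497%, lower), and with HXP 5 and HXP 6 left out so that HXP 4 alone was the low side (1037 genes, 7.56%, with 24 genes, 0.175%, lower). The GC correction took out each library's general level along with its GC trend, and the median difference over all genes was 0.004 after it. It thus shares a rescaling with the median ratio, and the 4 settings are not independent of each other. Of the 1497 genes called as deposited, 527 were also called after median-ratio scaling, 446 after the GC correction and 863 without HXP 5 and HXP 6, and 366 were called in all 4 settings (2.67% of genes tested). Of those 366, 49 belonged to the lists of matrix genes and 317 did not, and 230 were in none of the gene lists used here. The lists are not complete. The 317 also held matrix genes such as Col6a5, Mfap2, Fbln7 and Ecm1, and antibody segments such as Igkv16-104 and Iglv2. The 317 are therefore not a count of genes apart from the matrix. Median-ratio scaling and the omission of HXP 5 and HXP 6 together left 430 genes (3.14%) higher and 152 (1.11%) lower. In the lower direction, 3 of the 7 genes were called in all 4 settings: Cipc, mt-Nd4l and the predicted gene Gm23946.

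The matrix genes were separated by construction and are given briefly. All 19 collagens were called higher, with a median difference of 2.38, and 13 of them were among the 366. Of 29 matrix glycoproteins and proteoglycans, 27 were called higher, with a median of 2.19. Comp, a cartilage matrix protein found in mature scars, read 51.5, 185 and 361 FPKM on the high side and 34.7, 8.83 and 0.391 on the low side. By the mean of the collagen list HXP 3 was the richest in matrix, HXP 1 the poorest of the high side, and HXP 6 the poorest of all. That mean log2 level was 4.63, 5.20 and 6.02 in HXP 1 to HXP 3 and 3.58, 3.65 and 1.60 in HXP 4 to HXP 6, with MI libraries between 4.06 and 6.29 and control libraries between 2.29 and 2.86.

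Enzymes that modify the matrix went the same way. Of 16 genes for collagen processing, 12 were called higher, and 5 stayed called in all 4 settings: the crosslinking lysyl oxidases Lox, Loxl1 and Loxl3, the procollagen peptidase enhancer Pcolce and the prolyl hydroxylase P3h3. Loxl1 read 23.1, 40.6 and 67.4 FPKM on the high side and 9.30, 8.78 and 1.29 on the low side. Among 16 proteases and inhibitors, 10 were called higher, including Timp1, the inhibitor of matrix metalloproteinases, at 20.3, 50.0 and 55.0 FPKM against 5.16, 10.3 and 0.528.

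Fibroblasts make most of these products, so their markers are close to the rule as well. Of 16 fibroblast markers, 9 were called higher, with a median of 1.36, and 6 stayed in all 4 settings (Tcf21, Dpt, Vim, Mfap5, Pi16 and Clec3b). Tcf21, a transcription factor of resident fibroblasts, read 5.68, 9.83 and 12.3 FPKM on the high side and 2.70, 0.911 and 0.870 on the low side. Pdgfra, the receptor that marks cardiac fibroblasts, read 5.76, 11.6 and 18.7 FPKM against 5.32, 5.24 and 2.47, so that HXP 1 and HXP 4 were close. Genes of myofibroblasts and matrifibrocytes were higher in 13 of 16 cases, with a median of 1.75, and 11 of 16 stayed in all 4 settings. Fmod, a collagen-binding proteoglycan, read 14.9, 53.9 and 116 FPKM against 11.4, 8.02 and 0.0473.

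In the lists of TGF-beta, Wnt, BMP and IGF signalling the 3 largest differences of each list were all in secreted proteins. Of 19 genes of the TGF-beta pathway, which drives fibroblasts to make matrix, 11 were called higher and the sides did not overlap for 18, with a median of 1.22. Over all genes 10.9% were called higher and 52.2% did not overlap. After median-ratio scaling 5 of the 19 were called and the sides did not overlap for 9, with a median of 0.80, beside 3.84% of all genes called. Tgfb3, a ligand, read 21.03, 40.4 and 66.1 FPKM on the high side and 10.7, 11.02 and 3.11 on the low side. The other ligands differed less: Tgfb1 by 1.18 and Tgfb2 by 1.25. Ltbp3, which holds latent TGF-beta in the matrix, differed by 2.47, from 17.4, 27.9 and 46.6 FPKM to 9.18, 4.60 and 1.59. Only Tgfb3, Ltbp3 and the matrix target Tgfbi stayed called in all 4 settings.

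In the Wnt list 9 of 23 genes were called higher, with a median of 0.81, and the largest differences were in secreted antagonists. Sfrp2, which binds Wnt ligands outside the cell, read 76.2, 200 and 309 FPKM on the high side and 34.7, 23.8 and 0.792 on the low side (a difference of 3.85; ENSMUSG00000027996, chromosome 3, 83766321 to 83774316). Dkk3, a member of the Dickkopf family, read 20.7, 40.3 and 102 FPKM against 11.02, 7.43 and 0.512. Frzb, another decoy for Wnt ligands, differed by 2.74. The 6 Wnt genes called in all 4 settings were 4 secreted proteins of these families (Sfrp1, Sfrp2, Frzb and Dkk3) and the receptors Fzd1 and Fzd2.

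In the list of BMP, activin and GDF signals 8 of 16 genes were called higher. The list's members in all 4 settings were the secreted proteins Fstl1, Fst and Nbl1, which bind such ligands, and Bmp1, a protease that trims procollagen. Fstl1 read 99.0, 164 and 292 FPKM on the high side and 40.3, 61.7 and 8.89 on the low side. Among 11 IGF genes the binding proteins Igfbp6 (a difference of 3.35) and Igfbp4 (2.70) stayed in all 4 settings. Ccn2, the connective tissue growth factor and a target of the mechanosensor YAP, read 66.4, 132 and 280 FPKM against 54.4, 49.7 and 15.8. HXP 1 and HXP 4 were thus close for Ccn2, and of 15 YAP and SRF targets 6 were called higher as deposited and 1 in all 4 settings.

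Genes of antigen presentation by MHC class II were higher throughout on the high side. The sides did not overlap for 9 of 9 genes, beside 52.2% of all genes, and 7 were called higher, beside 10.9%. In all 4 settings 7 were called, and the median difference was 2.22. Cd74, the invariant chain that guides class II molecules, read 211, 248 and 456 FPKM on the high side and 85.6, 70.2 and 36.5 on the low side. H2-Eb1, a class II chain, read 96.5, 115 and 182 FPKM against 29.2, 20.2 and 10.5. Ctss, the protease that degrades the invariant chain, read 47.0, 108 and 103 FPKM against 17.7, 17.2 and 7.31. HXP 4 and HXP 5 lay near the control libraries for Cd74, which ranged from 49.4 to 76.4 FPKM, and HXP 6 lay below them.

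Macrophage and monocyte markers were called higher in 19 of 27 cases, with a median just under 1.5, and 15 stayed in all 4 settings. Lgals3, galectin-3, read 16.3, 27.8 and 34.5 FPKM on the high side and 5.59, 2.03 and 0.224 on the low side. Lyz2, the lysozyme of myeloid cells, read 296, 604 and 495 FPKM against 132, 149 and 68.3. The receptors Ccr2, of recruited monocytes, and Trem2, of lipid-laden macrophages, differed by 1.33 and 1.68 from lower levels. The sides overlapped for Lyve1, Timd4, Folr2 and Cd163, genes known from resident macrophages that were picked from the list after their values were seen. Other general macrophage genes of the list, Adgre1, Csf1r, Cx3cr1, C1qa, C1qb and C1qc, stayed called in all 4 settings. C1qa read 79.7, 146 and 158 FPKM on the high side and 38.3, 21.9 and 8.83 on the low side. A division into recruited and resident macrophages was not tested. Lyve1 read 9.21, 21.01 and 13.1 FPKM against 7.47, 12.9 and 5.63, and Timd4 was below 1 FPKM in the 6 libraries. Of 11 neutrophil markers 5 were tested, and of 16 T and NK cell markers 3. None was called in all 4 settings, beside 2.67% of all genes, and so few genes cannot show that these cells were absent. As deposited, the sides did not overlap for 1 of the 5 and 2 of the 3, with the high side higher. The T-cell gene Trac was called, at 1.25, 1.75 and 2.60 FPKM against 0.554, 0.414 and 0.181.

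Complement genes were higher on the high side in 11 of 14 cases, with a median of 1.81, and 8 stayed in all 4 settings. C3, the central component, read 72.6, 280 and 240 FPKM on the high side and 40.9, 41.9 and 13.0 on the low side. C4b, of the classical pathway, read 14.4, 64.4 and 80.7 FPKM against 6.499, 9.29 and 0.816. HXP 1 sat well below HXP 2 and HXP 3 for both genes. Of 21 cytokine and chemokine genes 13 were called higher, and Il33, Ccl6, Ccl7, Ccl8, Cxcl5 and Cxcl16 stayed in all 4 settings. Ccl8, a chemokine for monocytes, read 8.04, 24.0 and 21.8 FPKM against 1.495, 5.30 and 0. Of 22 interferon-response genes, only Bst2 stayed in all 4 settings.

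Genes outside the matrix lists were ranked if their sides did not overlap. They also had to average at least 1 FPKM in the HXP group and have an established symbol. Antibody genes held 6 of the 8 largest differences, and Gas1 and Sfrp2 the other 2. Igkv16-104, Iglv2, Ighv11-2 and Gas1 reached that average through the high side, with low side values of at most 2.49 FPKM. The antibody genes encode parts of the same proteins, so they are not independent observations. Igkc, the constant region of the kappa light chain (ENSMUSG00000076609, chromosome 6, 70726435 to 70726966), read 181, 617 and 686 FPKM on the high side and 26.0, 68.0 and 2.67 on the low side. The difference of 4.49 stood beside 4.002 after median-ratio scaling and 3.98 with HXP 4 as the low side. Jchain, the chain that joins antibody multimers, read 13.4, 52.5 and 55.97 FPKM against 2.31, 5.84 and 0.150, and Ighm, the heavy chain of IgM, read 61.2, 321 and 414 FPKM against 22.6, 32.8 and 2.60. Ms4a1 (CD20), a surface marker of B cells, was at most 1.22 FPKM, in HXP 3. Cd79a, a signalling chain of the B-cell receptor, read 0.922, 3.15 and 6.92 FPKM on the high side and 0.604, 0.345 and 0.509 on the low side. Immunoglobulin levels also varied widely in MI libraries, where Igkc ranged from 7.85 to 651 FPKM with a median of 142.

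Of the markers of the outer layers of the heart and its surroundings, those of the mesothelium went with the split in part and those of fat did not. Mesothelial and epicardial markers were called higher in 7 of 12 cases, and only Msln and C3, which is also in the complement list, stayed in all 4 settings. Upk3b, a uroplakin of the mesothelium that did not stay, read 3.62, 39.9 and 14.96 FPKM against 2.78, 3.30 and 0.0147. Adipocyte markers were called in 0 of 9 cases, and HXP 1 lay below HXP 4 and HXP 5 in the mean of the list. Adipoq, the hormone adiponectin, read 0.0763, 44.0 and 54.8 FPKM on the high side and 0.581, 4.02 and 0 on the low side. Cfd, a complement protease made by fat cells, read 0.486, 400 and 328 FPKM against 4.17, 9.51 and 0.0565. The mean log2 level of the adipocyte list was 1.33, 5.32 and 5.26 in HXP 1 to HXP 3 and 1.75, 2.57 and 1.17 in HXP 4 to HXP 6. The mean log2 level of the complement list, which shares Cfd with the adipocyte list, was 3.31, 5.10 and 5.24 in the order HXP 1 to HXP 3, and that of B and plasma cell markers was 2.88, 4.755 and 4.798. The antibody gene Igkv16-104 had another order, with levels of 84.2, 3.68 and 48.9 FPKM in these 3 libraries. The part of fat or mesothelium in these levels was not tested.

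Smooth muscle and pericyte markers were called higher in 7 of 14 cases, with a median of 1.03 as deposited and 0.62 after median-ratio scaling, and the contractile genes Myh11, Acta2, Tagln and Cnn1 stayed in all 4 settings. Tagln read 52.5, 78.7 and 60.5 FPKM on the high side and 13.0, 18.3 and 11.1 on the low side. As deposited, 13 of the 14 differences were above 0, and the exception was the channel gene Abcc9, at 31.7, 25.6 and 23.9 FPKM against 51.9, 40.9 and 55.4. Endothelial markers had a median of 0.50 as deposited and 0.01 after median-ratio scaling, and only Cldn5, a tight junction gene, stayed called in all 4 settings. Cldn5 read 13.7, 17.6 and 11.5 FPKM against 3.58, 3.61 and 1.18, and the 3 low side values lay below all 15 other libraries. Of 5 lymphatic markers 4 were called as deposited, and Pdpn stayed in all 4 settings. Ccl21a, a lymphatic chemokine, read 34.5, 71.1 and 40.1 FPKM against 12.4, 30.4 and 3.61, and its high side lay above the highest MI or control library at 26.9 FPKM. Ccl21a has near-identical copies in the genome, so its level is uncertain.

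Among cardiomyocyte genes, 5 of the 12 of the stress and fetal program were called higher on the high side, and none of 22 of contraction and calcium handling was called in either direction as deposited. Nppa encodes atrial natriuretic peptide, which the stressed ventricle makes again (ENSMUSG00000041616, chromosome 4, 148000722 to 148002079). It read 2161, 3715 and 7107 FPKM on the high side and 884, 1286 and 88.3 on the low side. The control libraries ranged from 89.8 to 348 FPKM with a median of 151, so HXP 6 lay just under the lowest of them, and HXP 4 and HXP 5 lay above the highest. The difference of 3.04 was 2.52 after median-ratio scaling and 2.12 with HXP 4 as the low side.

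HXP 5 also carried atrial transcripts, which bear on Nppa. Myl7, the atrial myosin light chain, was at 19.0 FPKM in HXP 5 and at most 1.46 FPKM in the 5 other HXP libraries. Sln, sarcolipin of the atria, was at 6.13 FPKM in HXP 5 and at most 0.959 in the others. The mean log2 level of the whole atrial list, which also holds Nppa, Dkk3 and Clu, was 4.02, 4.19 and 4.30 in HXP 1 to HXP 3 and 3.22, 4.25 and 2.33 in HXP 4 to HXP 6, so HXP 5 lay with the high side without being the highest. The part of atrial tissue in the Nppa level of HXP 5 was not tested. Nppb, the ventricular peptide of the pair, read 410, 497 and 762 FPKM on the high side and 181, 536 and 133 on the low side, and the sides overlapped through HXP 5.

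Myh7, the fetal and slow myosin heavy chain, read 232, 162 and 504 FPKM on the high side and 141, 101 and 45.5 on the low side. Acta1, skeletal actin of the fetal program, read 308, 750 and 578 FPKM against 186, 238 and 124. Of the cardiac stress list, Nppa, Actn1 and Uchl1 stayed called in all 4 settings. Myh6, the adult myosin heavy chain, read 3787, 2164 and 1504 FPKM against 3270, 2430 and 2527, and the sides overlapped because HXP 1 held the most of all 6.

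For the contractile and calcium-handling genes the sides did not overlap for 3 lower genes, Ttn, Pln and Ryr2, and for 2 higher ones, Actc1 and Mybpc3. Pln, phospholamban, the brake on the calcium pump, read 324, 232 and 183 FPKM on the high side and 328, 346 and 434 on the low side, so HXP 1 all but touched HXP 4. Atp2a2, the calcium pump itself, read 1809, 1116 and 763 FPKM against 1825, 1575 and 2083, and HXP 1 lay inside the low side. The list's median difference was -0.08 as deposited and -0.60 after median-ratio scaling, with Ttn, Pln and Atp2a2 then at least 2-fold lower; Actc1 and Mybpc3, at 0.32 and 0.38 as deposited, changed sign to -0.20 and -0.14. Both medians lie below the median of all genes on the same scale, 0.39 and 0.02.

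Metabolic genes showed the same gradation within the high side. For 28 genes of fatty acid uptake and oxidation the mean log2 level read 6.57, 5.98 and 5.57 on the high side and 6.32, 6.16 and 6.31 on the low side, in the order of the library numbers. As deposited, HXP 1 therefore held the highest and HXP 3 the lowest mean of the 6, although both carried much collagen. Acaa2, the last enzyme of the beta-oxidation cycle, read 506, 232 and 167 FPKM on the high side and 454, 365 and 558 on the low side. The lists of the TCA cycle (7.39, 6.80 and 6.4996 against 7.09, 7.22 and 7.29) and of nuclear genes of oxidative phosphorylation (7.87, 7.26 and 6.80 against 7.34, 7.22 and 7.25) had the same order within the high side. As deposited, none of these 3 lists separated the sides, with median differences of -0.30, -0.33 and -0.22. After median-ratio scaling the medians were -0.82, -0.85 and -0.75. The high side then lay below the low side without overlap for 8 of 28, 10 of 17 and 8 of 33 genes.

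Mitochondrially encoded transcripts did separate the sides. For 15 of 15 genes the high side lay below the low side, 4 (mt-Rnr1, mt-Rnr2, mt-Atp8 and mt-Nd4l) were called lower, and the median difference was -0.80 as deposited and -1.32 after median-ratio scaling. The large ribosomal RNA of the mitochondrion, mt-Rnr2, read 6478, 4215 and 2727 FPKM on the high side and 7431, 8098 and 10872 on the low side, with control libraries between 7450 and 10123 FPKM. For mt-Rnr2 the low side was thus within or close to the control range, and the high side was below it. For mt-Nd4l, mt-Nd5 and, by a small margin, mt-Nd4, the low side lay above all 15 other libraries. The level of mt-Nd4l was 15888.5, 14614.6 and 14756.9 FPKM on the low side, with at most 13222 in MI and control. The mitochondrially encoded genes share 1 precursor RNA from each strand, so they are not independent observations.

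As deposited, mitochondrial genes made up 4 of the 7 genes called lower, and few nuclear genes were much lower on the high side. This scarcity depended on the scaling: after median-ratio scaling 99 genes were called lower, 15 of them mitochondrially encoded. Cipc, an inhibitor of the circadian factor CLOCK, read 3.33, 0.975 and 4.15 FPKM against 12.04, 10.96 and 8.73, the largest difference in this direction among genes that have an established symbol and average 1 FPKM or more in the HXP group. Its control libraries ranged from 0.929 to 11.1 FPKM, so its level varied as widely within the control group. Agtr1a, the type 1 angiotensin II receptor, read 2.86, 6.54 and 6.14 FPKM against 12.9, 8.48 and 10.8, with controls between 9.76 and 14.4. Gpcpd1, a phosphodiesterase of choline metabolism, read 22.1, 21.7 and 16.3 FPKM against 40.8, 31.2 and 43.6. Agtr1a and Gpcpd1 fell short of a call as deposited, at -0.97 and -0.91, and differed by -1.42 and -1.41 after median-ratio scaling.

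Stress and housekeeping lists were less clear. Atf5, a transcription factor of the mitochondrial and integrated stress responses, read 22.7, 26.3 and 31.5 FPKM on the high side and 3.58, 1.31 and 4.66 on the low side. Control libraries held 13.0 to 21.7 FPKM of Atf5, so all 3 low side libraries lay below the control range. Phgdh, the first enzyme of serine synthesis, read 1.67, 4.53 and 7.15 FPKM against 0.604, 0.462 and 0.168. Of 15 genes of the integrated stress response, 4 were called higher and these 2 stayed in all 4 settings. The antioxidant enzyme gene Gpx3, whose product is secreted, read 137, 291 and 374 FPKM against 32.5, 76.1 and 40.4. The imprinted long non-coding RNA Meg3 read 4.10, 5.96 and 4.88 FPKM against 0.593, 1.62 and 0.325.

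Ribosomal protein genes show how far the scaling reaches. The sides did not overlap for 23 of 24 of them as deposited and 6 were called, with a median of 0.67, but after median-ratio scaling none was called and the median was 0.15. The lists of glycolysis (0.29 as deposited and -0.21 after scaling) and of heat shock proteins (0.21 and -0.24) changed sign, so no direction is given for them. Proliferation genes did not overlap for 12 of 16 members as deposited, beside 52.2% of all genes, at low levels, and none was called. After median-ratio scaling 8 of 16 did not overlap. Mki67 read 0.683, 1.18 and 2.69 FPKM against 0.480, 0.472 and 0.303.

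Some of the 366 genes with large differences belonged to none of the lists and are named here after their values were seen. Gas1, a surface protein of growth arrest, read 12.2, 29.8 and 51.8 FPKM on the high side and 0.175, 0.0218 and 2.49 on the low side. Serpina3n, a secreted protease inhibitor, read 20.5, 58.3 and 51.7 FPKM against 5.67, 6.65 and 2.16, and Mdk, the growth factor midkine, read 8.88, 11.7 and 17.8 FPKM against 1.43, 1.95 and 0.0295. Tspo, a cholesterol-binding protein of the outer mitochondrial membrane used as an imaging target in inflammation, read 53.2, 68.8 and 93.7 FPKM against 19.3, 13.0 and 3.41. Ccn5, a relative of Ccn2 that lacks 1 of its domains, differed by 3.35, more than the 1.91 of Ccn2.

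The control and MI libraries were not used to choose the sides and could be tested. The first test compared the 6 MI with the 6 control libraries in limma on log2(FPKM + 1), two-sided, with Benjamini-Hochberg adjustment over 13710 genes. It called 7387 genes (53.9%) higher and 754 (5.5%) lower in MI at an adjusted p under 0.05, around a median shift of 0.27 in all genes. After median-ratio scaling the counts were 3199 higher and 3040 lower, so the split between directions depended on the scaling.

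Of the 1497 genes called higher on the high side of HXP, 1322 (88.3%) were called higher in MI than in control, and 1, the predicted gene Gm7327, was called lower; they made up 17.9% of the 7387. With both comparisons scaled by the median ratio, 442 of 527 genes (83.9%) were called higher in MI, beside 23.3% of all genes, and of the 99 genes lower on the high side, 86 (86.9%) were called lower in MI, beside 22.2% of all genes. Of the 366 genes of the stricter set, 342 (93.4%) were called higher in MI as deposited and none lower. The share of all genes called higher in MI as deposited was 53.9%.

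Several single genes described within HXP also changed with infarction in these other libraries. By limma with Benjamini-Hochberg adjustment, Nppa was higher in MI than in control by 4.35 (SE 0.50, n = 6 against 6, adjusted p = 0.000188), Comp by 6.43 (SE 0.57, adjusted p = 7.71e-05) and Sfrp2 by 5.37 (SE 0.61, adjusted p = 0.000187). Cd74 was higher by 1.72 (SE 0.29, adjusted p = 0.000577), C4b by 3.13 (SE 0.42, adjusted p = 0.000259) and Igkc by 4.28 (SE 0.87, adjusted p = 0.0015). These are the markers of stretch, scar, antigen presentation, complement and antibody-producing cells that also differed within the HXP group. Pln was lower in MI by limma, with an estimate of -0.54 (SE 0.12, adjusted p = 0.00265), as were Acaa2 at -0.79 (SE 0.18, adjusted p = 0.00297) and mt-Rnr2 at -1.003 (SE 0.19, adjusted p = 0.000999). The sides of HXP overlapped for Acaa2. Atf5, which separated the sides of HXP by 2.82, did not pass in MI against control, at 0.71 (SE 0.39, limma adjusted p = 0.131). Nppb, which overlapped within HXP, was higher in MI by 1.88 (SE 0.32, limma adjusted p = 0.000592).

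**Figure D3:**
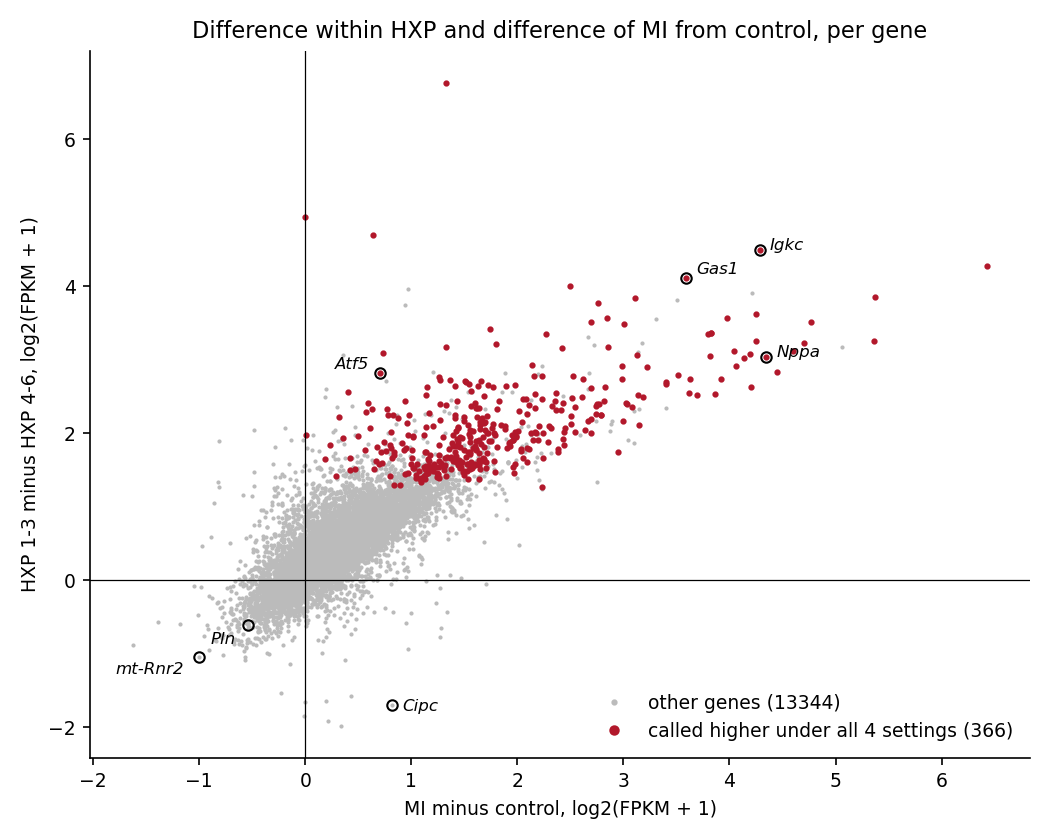
Each point is 1 of 13710 genes: on the x axis the MI minus control difference, on the y axis HXP 1 to 3 minus HXP 4 to 6, both in log2(FPKM + 1); red points are the 366 genes called higher in all 4 settings. The comparisons share no library, and the red points lie to the right of 0 for nearly all genes, while Cipc is lower on the high side without being lower in MI.

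By list, and beside 53.9% of all genes called higher, the same comparison called 22 of 27 macrophage and monocyte markers, 9 of 9 MHC class II genes, 14 of 14 complement genes, 9 of 10 B and plasma cell markers and 18 of 19 TGF-beta genes higher in MI, and none of them lower. After median-ratio scaling these counts were 21, 8, 13, 8 and 12 in the same order, beside 23.3% of all genes. For fatty acid uptake and oxidation it called 21 of 28 genes lower and 2 higher, and for mitochondrially encoded transcripts 14 of 15 lower; after scaling 24 of 28 and 15 of 15 were called lower, beside 22.2% of all genes. Ribosomal protein genes were called higher in 22 of 24 cases as deposited but in 1 case, with 1 lower, after median-ratio scaling. All gene lists were written with earlier results of these data known. Counts per list, here and for the slopes below, are therefore not independent of these data. Endothelial markers were called higher in 10 of 17 cases as deposited and in none after scaling, when 3 were called lower.

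The second test asked, within the 6 MI libraries alone, which genes went with Col1a1. The slope of each gene on log2(Col1a1 + 1) was fitted in limma, two-sided, with Benjamini-Hochberg adjustment over 13709 genes. It called 1307 genes (9.53%) positive and 202 (1.47%) negative. These calls rested on the MI libraries with the highest and the lowest Col1a1: without MI 5, without MI 6, or without both, 0 genes were called in either direction at an adjusted p under 0.05, although 1888, 2001 and 907 genes were positive and 333, 416 and 361 negative at an unadjusted p under 0.05. MI 5 also held lung markers (Sftpc, a surfactant protein, at 970 FPKM), and their part in these slopes was not tested. MI 1 and MI 2 were the most alike of the MI libraries (r = 0.989 on log2 values, at most 0.972 in other MI pairs). With these libraries averaged into 1, 443 genes were called positive and 42 negative.

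With these limits, 616 of the 1496 genes called higher on the high side of HXP and tested (41.2%) had a positive slope in MI. These 616 were 47.1% of the 1307, and 2 of the 1496, Mid1ip1 and Amigo1, had a negative slope. Of the stricter set, 204 of 365 genes (55.9%) were positive and none negative. By limma with Benjamini-Hochberg adjustment, Cd74 had a slope of 0.68 (SE 0.12, adjusted p = 0.0298) and Myh7 of 0.73 (SE 0.09, adjusted p = 0.0163), while Igkc at 1.11 (SE 0.75, adjusted p = 0.332) did not pass. MHC class II genes were called positive in 7 of 9 cases and macrophage markers in 8 of 27, but after median-ratio scaling in 1 of 9 and 4 of 27. With both comparisons scaled, 137 of 526 genes called higher on the high side (26.0%) had a positive slope, beside 2.28% of all genes, and 30 of the 99 called lower (30.3%) had a negative slope, beside 1.83% of all genes. Complement and B and plasma cell markers were called positive as deposited in 1 of 14 and 1 of 10 cases, near the 9.53% of all genes. With 6 libraries these counts cannot tell whether such genes go with Col1a1 in MI.

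The low side was not uniform, as its place among the other groups shows. The 366 genes were chosen because HXP 1 to HXP 3 lay above HXP 4 to HXP 6. Their places in these libraries are therefore fixed in part by that choice, and the shares are a description. Of the 366 genes, 96.4%, 98.4% and 98.1% lay above all 6 control libraries in HXP 1, HXP 2 and HXP 3. The shares over all genes tested were 59.8%, 64.5% and 68.1%. In HXP 4 and HXP 5, 60.9% and 65.3% of the 366 genes lay above all control libraries, beside 25.1% and 29.9% of all genes. Within the MI range lay 38.5% of the 366 in HXP 4 and 45.9% in HXP 5, beside 45.5% and 50.9% of all genes. Another 32.5% and 26.5% lay above every control and below every MI library, beside 6.87% and 6.89% of all genes. In HXP 6, 0.820% lay above the control range and 70.8% below it, beside 8.71% and 40.8% of all genes. HXP 6 was low in general, with the lowest median-ratio factor of the 18 libraries (0.754), and after median-ratio scaling 59.6% of the 366 genes lay below the control range in HXP 6, beside 27.05% of all genes. On the high side, 97.5% of the 366 genes in HXP 1 lay within the range of the MI libraries, beside 71.9% of all genes. In HXP 3, 47.3% of the 366 lay above that range, beside 39.5% of all genes.

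**Figure D4:**
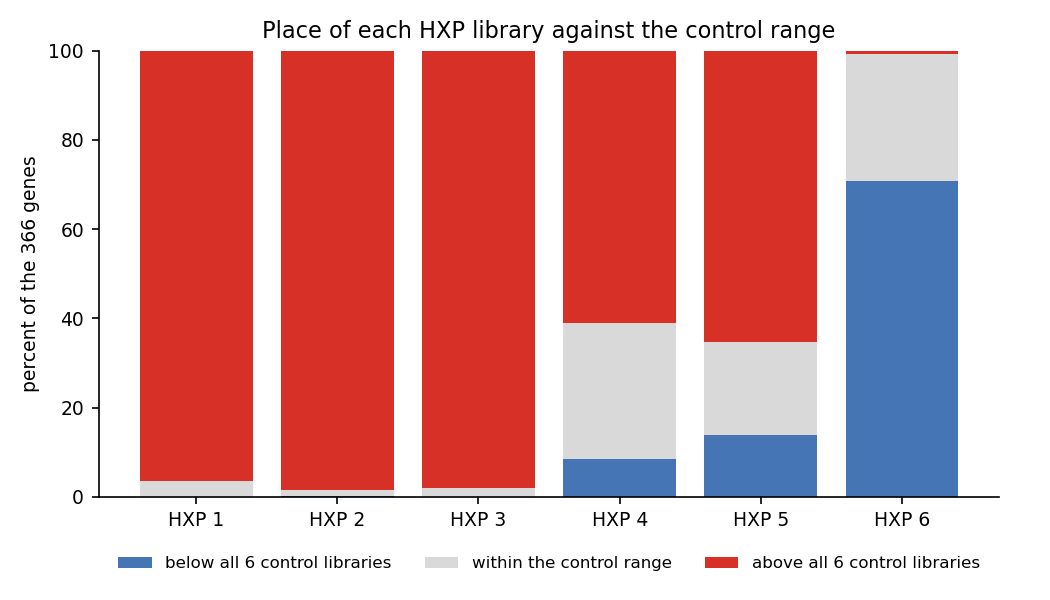
Percent of the 366 genes called higher in all 4 settings that lie below, within or above the range of the 6 control libraries, for each HXP library. HXP 1 to 3 are above the range for 96.4% to 98.4% of the genes, HXP 4 and 5 for 60.9% and 65.3%, and HXP 6 is below it for 70.8%. The genes were chosen for lying higher in HXP 1 to 3 than in HXP 4 to 6.

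The low side was also compared with all 15 other libraries, control libraries included. It lay below every one of them for 691 genes (5.04%) and above for 13 (0.0948%). H2afz, a histone variant, read 8.33, 8.49 and 6.99 FPKM in HXP 4 to HXP 6 and 23.5, 23.4 and 26.1 in HXP 1 to HXP 3, while MI and control libraries held at least 17.1 FPKM. Bhlhb9, a gene of the X chromosome, read 3.19, 3.73 and 3.40 FPKM on the low side and 1.23, 1.16 and 1.29 on the high side, and at most 1.55 FPKM in the other 12 libraries. For H2afz and Bhlhb9 the high side lay within the range of the MI and control libraries together. The high side lay above all other libraries for 157 genes (1.15%), among them the renal dipeptidase Dpep1, at 28.5, 30.2 and 32.0 FPKM with at most 25.1 in MI and control.

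The column headers of the deposited files give each library a number whose meaning is not stated in the sources used here. By these numbers HXP 1, HXP 3, HXP 4 and HXP 6 fall close together, and HXP 2 and HXP 5 fall in another range, so both sides hold members of each. Within the first range, with HXP 1 and HXP 3 against HXP 4 and HXP 6, 1784 genes were called higher and 26 lower, a setting in which fewer libraries have to be separated.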

How the data were processed

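The deposited values are 1 column per library, read as FPKM because the low values of a gene are whole multiples of what 1 read is worth (97.4% to 97.9% of the values checked, within 0.1 of a whole number); the deposited files name no unit, so FPKM is inferred from the deposited values. The genome build GRCm38 and limma appear in the submitters' processing notes, without a role; the sources used here name no aligner or counter. Of 34150 gene IDs, 34097 matched GENCODE M21.

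All comparisons used log2(FPKM + 1) of 13710 genes that averaged 0.5 FPKM or more (Python 3.11.15, pandas 2.3.3, R 4.3.3, limma 3.58.1 with a mean trend). limma fits were tested on simulated data. The HXP sides were not tested. Members and gene lists were chosen with earlier results of these data known. Named genes are a fixed set of heart and matrix genes, the 8 highest and 8 lowest differences outside the matrix lists, the 3 largest absolute differences per list, and others said to be chosen after their values were seen or given as examples of a list. Replicate numbers do not pair the libraries. Alternatives were the pseudocount, the filter, 3 other scalings, the fold threshold, leaving out libraries, and a GC correction (lowess, span 0.3) chosen after the data were seen, as were the settings without HXP 5 and HXP 6 and without MI 5 and MI 6.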

Additional observations from a re-analysis of the deposited data

Results flagged for a closer look

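Of 68 gene lists and genes checked over the 6 HXP libraries, 2 had a library far from the others (a gap, divided by the range of the 6, above Dixon's critical value); chance alone gives such a gap in about 1 of 20 groups. Skeletal muscle markers had a mean log2(FPKM + 1) of 1.80 in HXP 5, with a gap of 0.771 of the range, while the 5 other HXP libraries lay between 0.48 and 0.78. Myh1, a fast skeletal myosin, was at 2.10 FPKM in HXP 5 and at most 0.152 in the others. Red blood cell markers had a mean of 8.54 in HXP 1, with a gap of 0.729 of the range, against 6.93 to 7.37 in the others. The alpha-globin gene Hba-a1 was at 2163 FPKM in HXP 1 and between 180 and 755 in the others; Hba-a1 and Hba-a2 are near-identical copies.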

How the results depend on the processing

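The counts of genes called on the 2 sides of HXP moved with most choices. Genes called higher (1497) and lower (7) became 2827 and 29 with a pseudocount of 0.1, 415 and 110 after quantile normalization, 527 and 99 after median-ratio scaling, 446 and 68 after the GC correction, 430 and 152 with median-ratio scaling without HXP 5 and HXP 6, 3757 and 58 at 1.5-fold, and 7163 and 217 with no fold threshold. Higher calls were 813 at a mean of at least 5 FPKM. Lower calls were 11 with scaling without mitochondrially encoded genes, 26 in HXP 1 and HXP 3 against HXP 4 and HXP 6, and 24 without HXP 5 and HXP 6. Leaving out 1 HXP library gave 958 (without HXP 6) to 2249 (without HXP 1) higher and 6 to 33 lower; with fewer libraries, fewer have to be separated.

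MI minus control called 2998 higher and 2834 lower after the GC correction, 3199 and 3040 after median-ratio scaling, 2474 and 3791 after quantile normalization, 2816 higher at a mean of at least 5 FPKM, and 440 lower with the spread of all 18 libraries; leaving out 1 library gave 6693 to 7824 and 595 to 947. Same-numbered MI and control libraries did not deviate together (r between -0.0026 and 0.199, own number best in 2 of 6), and the replicate block gave 6980 higher and 677 lower.

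Slopes on Col1a1 in MI numbered 488 positive and 386 negative after the GC correction, 443 and 42 with MI 1 and MI 2 averaged, 3429 and 480 with control libraries and a group term, 99 and 16 without a filter, 0 and 0 without MI 5 and MI 6, and, for positive slopes, 775 at a mean of at least 5 FPKM, 312 after median-ratio scaling, 340 after quantile normalization and 863 with scaling without mitochondrially encoded genes; leaving out 1 MI library gave 0 to 1460 and 0 to 238. The slope of Igkc was 2.77 without MI replicate 5 and turned to -0.51 without MI replicate 6 (limma adjusted p = 0.776; 0.192 to 0.837 over its alternatives). The causes were not tested. With 3 libraries a side and no test within HXP, the spread within each side limits every difference.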

Other observations

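The variable genes of the kappa light chain differed in level between the HXP libraries. The files hold 102 Igkv genes, which form a family of similar sequences, so reads may be split between members. At 1 FPKM or more there were 17, 58 and 52 of them in HXP 1, HXP 2 and HXP 3, and 7, 9 and 0 in HXP 4, HXP 5 and HXP 6, a count that depends on their total level. Their summed level was 145, 791 and 1009 FPKM on the high side and 31.3, 108 and 4.40 on the low side.

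A single gene held much of that sum in some hearts. In HXP 1, Igkv16-104 reached 84.2 FPKM, 58.2% of the sum, and in HXP 5 Igkv1-117 reached 32.6 FPKM, 30.3% of it. In HXP 2 and HXP 3 the leading gene was Igkv14-126, with 17.4% and 14.8%. Among MI libraries, Igkv8-30 in MI 3 reached 398 FPKM, 44.6% of the sum in that library.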
